A study of Mus musculus with 4 samples.

Results

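The TAM family was measured here through 11 of the 29121 accessible regions in the authors' count table: every region whose nearest gene is Axl, Mertk or Tyro3, the 3 receptors, or Gas6 or Pros1, their 2 ligands. Of these regions, 3 lay at a promoter and 8 were distal, by whether a region overlapped 1 kb on either side of its nearest start site. The family was chosen by a value known beforehand, the lower count at the Axl promoter in Fgf13cko cultures, so the 2 regions of Axl are described without a test and the 9 regions of the other genes carry the tests.

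The assay was ATAC-seq, in which the transposase Tn5 cuts open chromatin and tags are counted where it cut. The cells were neurospheres, floating clusters of neural progenitors, grown from P0 hippocampus of C57BL/6 mice for 7 days with FGF-2 and EGF at 20 ng/ml each. The 2 Fgf13cko cultures (hGFAPCre+, Fgf13 flox/y) and the 2 control cultures (hGFAPCre+, Fgf13+/y) all carried a Cre transgene under the human GFAP promoter, which acts in neural progenitors and astrocytes, so cells in which it was silent would keep Fgf13. Fgf13 is an X-linked gene for an intracellular protein of the FGF family that binds sodium channels and microtubules. Each mouse gave cells for 2 wells, and nothing in the labels ties the cultures of a group to different mice, so the p-values measure only how far these samples spread, and that spread may be technical. In such bulk cultures, fewer cells of a type and less accessibility per cell cannot be told apart.

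Tyro3, Axl and Mertk are receptor tyrosine kinases. Their ligands Gas6 and protein S (the product of Pros1) carry vitamin K-dependent Gla domains that bind phosphatidylserine on dying cells and membrane debris, so that ligand and receptor bridge the dying cell to the cell that engulfs it. Gas6 activates all 3 receptors, while protein S activates Tyro3 and Mertk. In the brain the family is known for the clearance of apoptotic newborn cells by microglia, for engulfment by astrocytes through Mertk, and for the damping of innate immune signalling.

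The start sites of Axl, Mertk and Pros1 lay inside a measured region, and their proximal promoters are shown because the promoter counts below were taken over them. Each is the stretch of 250 bases upstream of the RefSeq start, read 5′ to 3′ on the gene's strand from GRCm38.p6, at chr7:25788734-25788983 on the minus strand for Axl, chr2:128698665-128698914 on the plus strand for Mertk and chr16:62854057-62854306 on the plus strand for Pros1. Capitals mark the matches of the words searched.
Axl: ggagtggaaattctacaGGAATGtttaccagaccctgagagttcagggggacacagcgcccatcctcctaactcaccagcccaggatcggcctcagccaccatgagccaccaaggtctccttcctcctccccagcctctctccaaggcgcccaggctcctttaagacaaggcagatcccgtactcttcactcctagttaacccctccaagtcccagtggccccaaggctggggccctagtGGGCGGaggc
Mertk: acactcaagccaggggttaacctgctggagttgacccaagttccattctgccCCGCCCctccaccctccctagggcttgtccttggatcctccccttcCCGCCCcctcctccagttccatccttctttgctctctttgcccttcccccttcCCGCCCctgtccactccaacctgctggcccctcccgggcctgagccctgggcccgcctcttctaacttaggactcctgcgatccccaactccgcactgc
Pros1: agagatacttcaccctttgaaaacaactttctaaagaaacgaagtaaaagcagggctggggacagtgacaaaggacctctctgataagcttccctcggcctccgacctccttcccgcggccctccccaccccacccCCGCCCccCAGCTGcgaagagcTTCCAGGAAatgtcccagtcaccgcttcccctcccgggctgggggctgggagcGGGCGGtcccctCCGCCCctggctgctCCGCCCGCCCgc

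On both strands, 9 words were searched, and the share of 32851 mouse promoters of the same length that hold each is given with it: the GC box GGGCGG (32.7%), the TEAD word GGAATG (12.6%), the E-box CAGCTG (13.0%), the STAT word TTCCNGGAA (0.913%), AP-1 TGANTCA (6.75%), CRE TGACGTCA (1.55%), NFI TTGGC (41.5%), Sox AACAATG (3.29%) and NF-kB GGGANTTCC (1.43%). The Axl promoter held a TEAD word from 233 to 228 bases before the start and a GC box from 10 to 5 bases before it. The Mertk promoter held GC boxes that began 198, 152 and 99 bases before the start, each on the opposite strand. The Pros1 promoter held 5 GC boxes, of which the last pair overlap, and also an E-box from 106 to 101 and a STAT word from 92 to 84 bases before the start. The promoters of Tyro3 and Gas6, whose start sites fell outside the measured regions, held 3 and 4 GC boxes. None of the 5 promoters held the AP-1, CRE, NFI, Sox or NF-kB word in this window. These matches are a description of the letters only. GC content was 60.0% for Axl, 63.6% for Mertk, 73.2% for Tyro3, 54.8% for Gas6 and 64.4% for Pros1, against a median of 52.4% over all promoters. Tyro3 had 24 CpG sites in the window, Pros1 15, Gas6 10, Mertk 7 and Axl 5, against a median of 6.

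Library properties differed between and within the groups. The nuclear regions held 2.55 and 2.63 M tags in Fgf13cko 1 and 2, against 2.78 and 3.25 M in control 1 and 2, with a median of 57 to 72 tags per region. Mitochondrial DNA took 38.5% and 31.5% of the tags in regions in Fgf13cko, against 67.7% and 68.4% in controls. Fgf13cko 1 stood apart in that its counts depended on region width. Among the 4847 regions of 400 to 600 bases its median count was lower than that of Fgf13cko 2 by a log2 ratio of -1.06, and among the 2785 regions of 1300 to 1700 bases it was higher by 0.35, while control 1 over control 2 gave 0.16 and -0.04. The 11 regions are therefore given as fitted and also with an offset trended on region width, and those under 600 bases also without Fgf13cko 1. The targeted gene Fgf13 had 4 measured regions, with normalised counts of 34.8 to 125 over the 4 libraries and log2 fold changes of -0.53 to 0.83. In edgeR's quasi-likelihood test with Benjamini-Hochberg adjustment, 0 of them passed an adjusted p of 0.05, and 1 had an unadjusted p under 0.05. Since the floxed exon is not named in the labels, these regions do not check the genotypes.

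**Figure D1:**
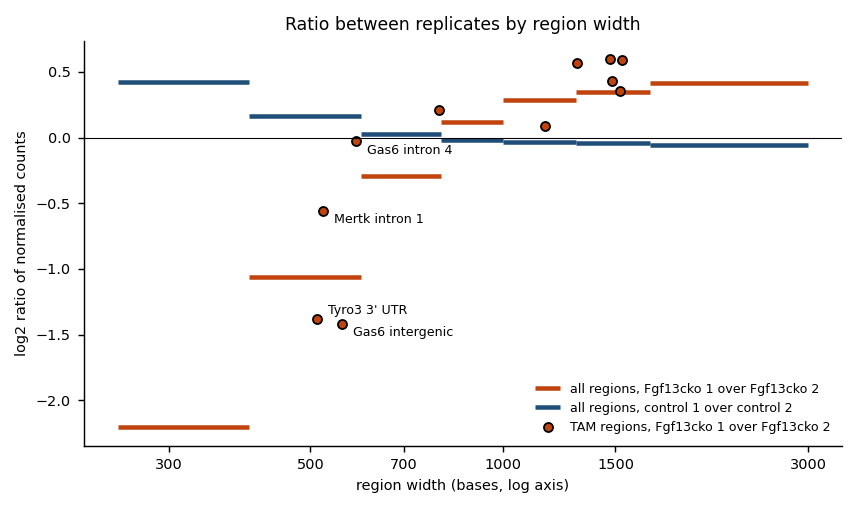
Log2 ratio of normalised counts between replicates (y axis) against region width in bases (x axis, log scale). Lines are medians over all tested regions in a width bin, for Fgf13cko 1 over Fgf13cko 2 and for control 1 over control 2, and points are the 11 TAM regions. The Fgf13cko line runs between -2.20 in the narrowest bin and 0.42 in the widest, and the control line between 0.42 and -0.06. The Tyro3 3' UTR and Gas6 intergenic points lie at -1.38 and -1.42.

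Accessibility at the TAM genes was compared between Fgf13cko and control cultures, which is the comparison the study was built for. The Axl promoter had lower counts in Fgf13cko, and among the 9 regions of Mertk, Tyro3, Gas6 and Pros1 none passed the test in either direction, where 9.48% of all tested distal regions rose and 2.24% fell. With the offset on region width, the region upstream of Gas6 rose, in a fit where 21.7% of all tested distal regions rose and 9.7% fell. The spread between the Fgf13cko cultures exceeded that between the controls in 10 of the 11 regions, by their SDs. Over all tested regions the Fgf13cko cultures also agreed less, with log2 counts correlated at 0.873, against 0.959 between the controls. The share of all regions with a larger SD in Fgf13cko was not counted, so no trait of the TAM regions is read from this.

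Axl encodes the receptor that binds Gas6 with the highest affinity and is known to be induced in inflammation and in tumours. Its promoter region, at chr7:25787617-25789098 on mm10, is 1482 bases wide, holds the start site and is centred in intron 1. It held 114 and 84.3 normalised counts (tags divided by the relative effective library size) in Fgf13cko 1 and 2, against 227 and 242 in control 1 and 2. Both Fgf13cko libraries lay below both controls, and the ratio of any Fgf13cko library to any control was between 0.348 and 0.503. The means were 99.2 ± 21 in Fgf13cko and 234 ± 10.9 in controls (SD, n = 2 each), a log2 fold change of -1.24 (SE 0.21), or 2.36-fold lower. Behind them stood 99.5 and 80 tags in Fgf13cko, against 231.5 and 286.5 in controls, which counts the 0.5 steps of the deposited values. The log2 fold change ranked 43 from the lowest among 11712 tested promoter regions, of which 0.76% fell and 1.42% rose past an adjusted p of 0.05, and whose median log2 fold change was -0.06. At 1482 bases the region is wide, and Fgf13cko 1 exceeded Fgf13cko 2 by 0.43 on the log2 scale, near the 0.35 of its width bin. After the width offset the values were 95.5 and 90.2 in Fgf13cko, against 243 and 253 in controls, a log2 fold change of -1.41, with 18.1% of promoters falling and 5.02% rising there. The value was -1.50 without Fgf13cko 1 and -1.04 without Fgf13cko 2. Over all promoter regions, 29.3% had both Fgf13cko libraries below both controls.

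The other Axl region, in intron 4 at chr7:25780797-25782269, lies 7200 bases downstream of the start. It held 58.4 and 38.5 normalised counts in Fgf13cko, against 53.4 and 34.7 in controls, so that the groups overlapped. The means were 48.5 ± 14.1 and 44.0 ± 13.2 (SD, n = 2 each; log2 fold change 0.14, SE 0.35), and -0.026 with the width offset. The 2 regions of Axl thus differed, in that the groups were apart at the promoter and interleaved in intron 4.

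Mertk encodes the receptor through which phagocytes, including astrocytes, take up dying cells and synaptic material. Its promoter region at chr2:128698154-128699461 held 257 and 173 normalised counts in Fgf13cko, against 220.3 and 235 in controls. The controls lay between the Fgf13cko values. The means were 215 ± 59.3 in Fgf13cko and 228 ± 10.4 in controls (SD, n = 2 each), with a log2 fold change of -0.09 (SE 0.22, 95% interval -0.59 to 0.42, adjusted p = 0.863 in edgeR's quasi-likelihood test). The interval leaves out a fall of the size at the Axl promoter, but that fall chose the family and the difference was not tested. With the width offset the log2 fold change was -0.25 (adjusted p = 0.166). Without Fgf13cko 1 it was -0.42, and without Fgf13cko 2 it turned to 0.16. Fits without 1 library leave a lone culture in its group, so no p-value is given for them.

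The Mertk region in intron 4, at chr2:128737920-128739456, lies 39773 bases downstream of the start and was nearly as high as the promoter. It held 252 and 168 normalised counts in Fgf13cko, against 207 and 231 in controls, the same order of libraries as at the promoter. Its log2 fold change was -0.07 (95% interval -0.58 to 0.44, edgeR adjusted p = 0.895). It was -0.25 with the width offset (adjusted p = 0.173) and -0.42 without Fgf13cko 1. In intron 1, at chr2:128709161-128709683, a region of 523 bases held 14.9 and 22.1 normalised counts in Fgf13cko, against 31.8 and 30.0 in controls. The Fgf13cko libraries lay below both controls, on 13 and 21 tags against 32.5 and 35.5, and the log2 fold change of -0.73 (SE 0.48, 95% interval -1.83 to 0.37, edgeR adjusted p = 0.423) did not pass. With the width offset it was -0.44 (adjusted p = 0.352), and without Fgf13cko 1 it was -0.50. A further region inside Mertk, in intron 9, is assigned by the table to the neighbouring gene Tmem87b. It held 22.3 and 29.5 normalised counts in Fgf13cko, against 30.4 and 35.9 in controls (log2 fold change -0.33, edgeR adjusted p = 0.696).

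Tyro3 encodes the TAM receptor most abundant in neurons. Each of its 3 regions had Fgf13cko libraries that did not overlap the controls, 2 above and 1 below, and none passed the test. Over all distal regions, 34.7% lay above both controls and 22.4% below both. In intron 4, at chr2:119802829-119804351, the region held 134 and 104 normalised counts in Fgf13cko, against 70.0 and 80.7 in controls. The means were 119 ± 20.6 and 75.4 ± 7.57 (SD, n = 2 each), with a log2 fold change of 0.64 (SE 0.22, 95% interval 0.14 to 1.14, edgeR adjusted p = 0.120). It was the only one of the 9 tested member regions with an unadjusted p under 0.05. The width offset gave 0.47 (adjusted p = 0.0578). Without Fgf13cko 2 it was 0.80, and without Fgf13cko 1 it was 0.43. Leaving out control 1 or control 2 gave 0.55 and 0.75.

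In intron 18, at chr2:119814439-119815232, Tyro3 had 82.5 and 71.2 normalised counts in Fgf13cko, against 62.2 and 64.7 in controls, with a log2 fold change of 0.28 (95% interval -0.24 to 0.80, edgeR adjusted p = 0.530), and 0.19 with the width offset (adjusted p = 0.551). The region in the 3' UTR, at chr2:119817027-119817538, is 512 bases wide and held 18.9 and 50.1 normalised counts in Fgf13cko, against 63.7 and 65.5 in controls. Both Fgf13cko libraries lay below the controls, Fgf13cko 1 by far the more. The log2 fold change was -0.90 (SE 0.42, 95% interval -1.85 to 0.05, edgeR adjusted p = 0.246). Under the width offset it was -0.62 (adjusted p = 0.0788), without Fgf13cko 1 it was -0.38, and without Fgf13cko 2 it fell to -1.82. The size of the fall thus differed with the Fgf13cko library kept. After the width offset the values were 31.7 and 39.6 in Fgf13cko, against 52.2 and 60.3 in controls. The part played by the low counts of Fgf13cko 1 in narrow regions was not tested.

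Gas6 encodes the ligand of all 3 receptors. Its region at chr8:13503918-13504478 is intergenic, 9663 bases upstream of the start, and 561 bases wide. It held 39.0 and 105 normalised counts in Fgf13cko, against 35.7 and 44.0 in controls. Fgf13cko 2 stood above the rest, and Fgf13cko 1 lay between the controls. The means were 71.9 ± 46.6 and 39.9 ± 5.81 (SD, n = 2 each), with a log2 fold change of 0.87 (SE 0.44, 95% interval -0.13 to 1.86, edgeR adjusted p = 0.283). After the width offset the values were 56.7 and 86.9 in Fgf13cko, against 31.3 and 41.7 in controls. There the log2 fold change was 1.04 (SE 0.26, 95% interval 0.52 to 1.56) and passed, with an adjusted p of 0.00213, in a fit where 21.7% of distal regions rose and 9.7% fell. Without Fgf13cko 1 it was 1.37, and without Fgf13cko 2 it was -0.038.

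The Gas6 region in intron 4, at chr8:13481830-13482419, held 41.8 and 42.7 normalised counts in Fgf13cko, against 53.4 and 26.2 in controls, which enclose both. Its log2 fold change was 0.09 (95% interval -0.81 to 0.98, edgeR adjusted p = 0.925), also without Fgf13cko 1 (0.09), and 0.29 with the width offset. At 590 bases it is as narrow as the intergenic region, yet Fgf13cko 1 over Fgf13cko 2 gave -0.03 here and -1.42 there, where the median of the width bin was -1.06. The gene overlaps its neighbour Tmem255b, and the table names the gene with the nearest start.

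Pros1 encodes protein S, which also serves as an anticoagulant in blood. Its promoter region at chr16:62853848-62855010, centred in exon 1, held 104 and 98.0 normalised counts in Fgf13cko, against 109.7 and 104 in controls. The 4 values lay close together, at means of 101 ± 4.42 and 107 ± 4.03 (SD, n = 2 each). The log2 fold change was -0.08 (SE 0.19, 95% interval -0.52 to 0.36, edgeR adjusted p = 0.859), and -0.21 with the width offset (adjusted p = 0.410). Its interval, like that of Mertk, leaves out a fall of the size at the Axl promoter. However, that fall chose the family, and the difference between promoters was not itself tested.

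**Figure D2:**
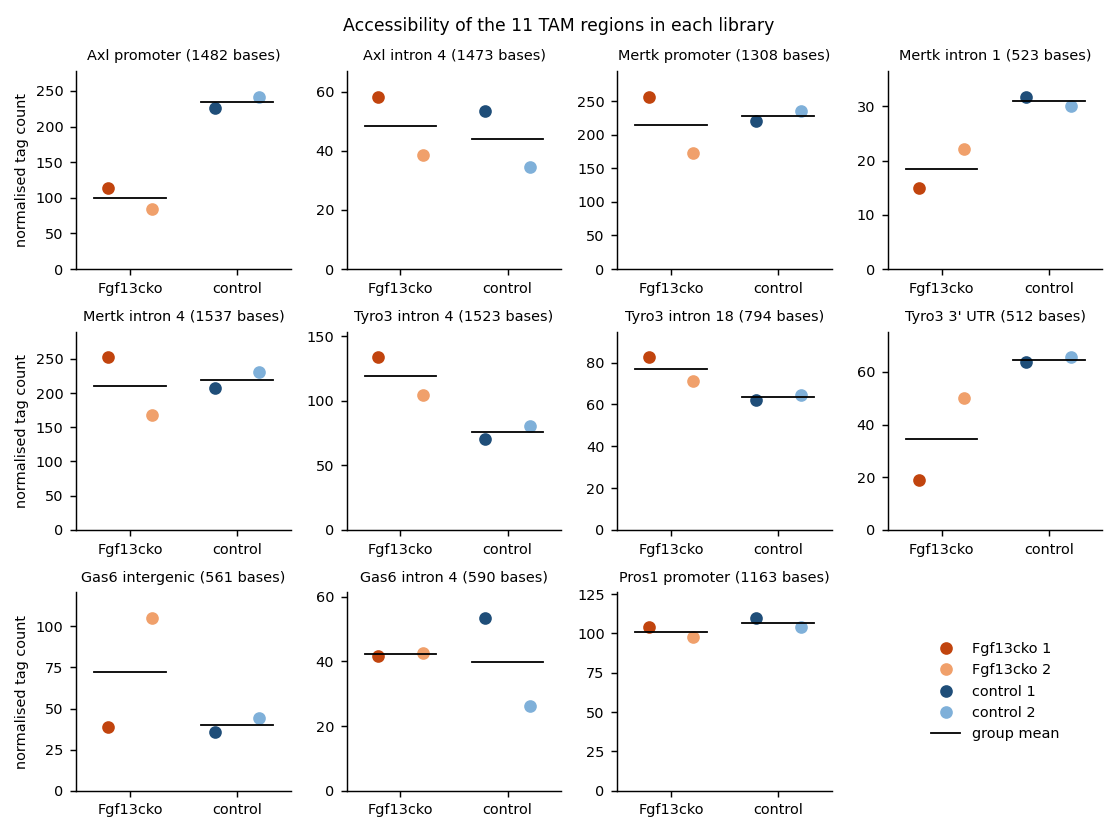
Normalised tag counts (y axis, from 0, a scale for each panel) of the 11 TAM regions in each library, with Fgf13cko to the left of control. Points are libraries and bars are group means. At the Axl promoter the Fgf13cko points are at 114 and 84.3 and the control points at 227 and 242, while the Pros1 promoter points lie between 98.0 and 109.7.

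Across the 11 regions, the Fgf13cko mean was lower in 6 and higher in 5, with a median log2 fold change of -0.07. All 11 passed the filter on low counts. Among the 9 regions outside Axl, 0 passed an adjusted p of 0.05 in edgeR's quasi-likelihood test and 1 had an unadjusted p under 0.05. In DESeq2, which gave no adjusted p for Mertk intron 1, 0 of the other 8 passed. Over the 17089 tested distal regions the median log2 fold change was 0.09, and at the shares of promoter and distal regions called, less than 1 of 9 regions would pass in each direction. Under the width offset 1 of the 9 passed, the region upstream of Gas6, and the median was -0.21. Many more regions passed in that fit: 21.7% of distal regions rose and 9.7% fell, and 5.02% of promoters rose and 18.1% fell. The 1 call is therefore not set apart from all regions.

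**Figure D3:**
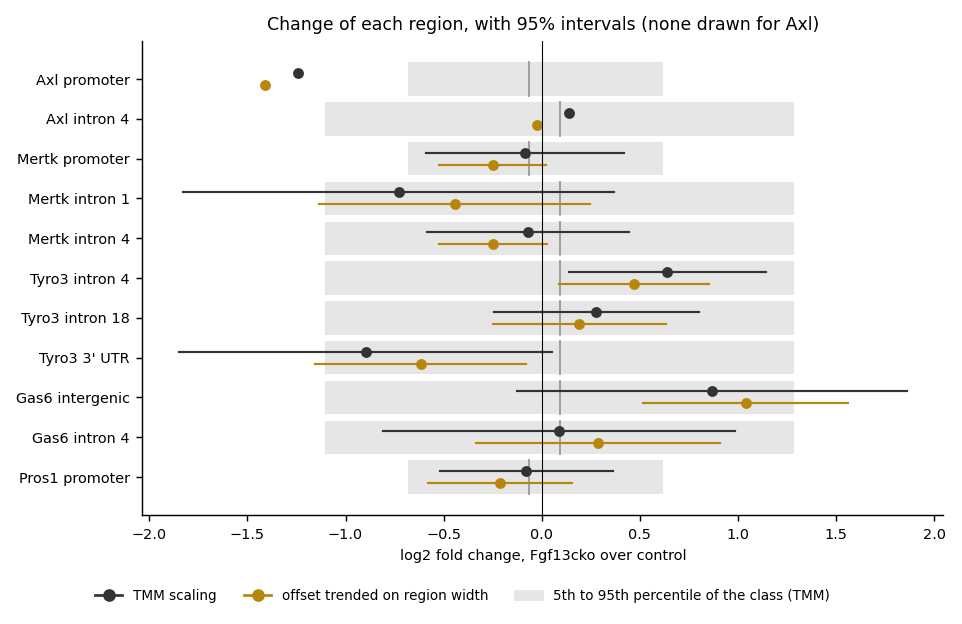
Log2 fold change of each TAM region, Fgf13cko over control (x axis), with TMM scaling (dark) and with the offset on region width (ochre). Horizontal lines are 95% intervals, not drawn for Axl, and grey bands span the 5th to the 95th percentile of all promoter or distal regions, with their median. The Axl promoter lies at -1.24, below its band, which begins at -0.68, and the dark points of the other regions all lie within theirs.

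The levels of the regions were ordered per kb of width, without the width offset. Since the counts of Fgf13cko 1 depended on region width, places of narrow against wide regions are less certain in Fgf13cko. In Fgf13cko cultures the Mertk promoter was highest, at a mean of 164 normalised counts per kb, followed by Mertk intron 4 (137), the Gas6 intergenic region (128), Tyro3 intron 18 (96.8), the Pros1 promoter (87.0), Tyro3 intron 4 (78.1), Gas6 intron 4 (71.6), the Tyro3 3' UTR (67.4), the Axl promoter (66.9), Mertk intron 1 (35.4) and Axl intron 4 (32.9). In controls the Mertk promoter was again highest, at 174 per kb, followed by the Axl promoter (158), Mertk intron 4 (143), the Tyro3 3' UTR (126), the Pros1 promoter (91.9), Tyro3 intron 18 (79.9), the Gas6 intergenic region (71.0), Gas6 intron 4 (67.4), Mertk intron 1 (59.1), Tyro3 intron 4 (49.5) and Axl intron 4 (29.9). In the controls the Axl promoter, with 153 and 163 per kb, stood at the 74.1 percentile of all promoter regions, close to the Mertk promoter at the 78.3 percentile, and Mertk intron 4 at the 90.1 percentile of distal regions. Axl intron 4, at the 3.95 percentile, was a weak region in every library. In Fgf13cko, 9 of the pairs of neighbours in this order overlapped in their libraries, and among neighbours only the Axl promoter and Mertk intron 1 were apart. In controls 3 pairs overlapped: Tyro3 intron 18 with the Gas6 intergenic region, that region with Gas6 intron 4, and Gas6 intron 4 with Mertk intron 1.

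The authors' peak lists give a further readout, because each of the 29121 regions of the count table has a peak in all 4 lists. The lists held 64954 and 54373 peaks in Fgf13cko 1 and 2, against 38006 and 47148 in control 1 and 2, and this difference in length was not corrected for. Within the 5 genes the lists held 22 separate sites, of which 11 were in all 4 lists: 2 in Axl, 4 in Mertk, 3 in Tyro3, 1 in Gas6 and 1 in Pros1. In both Fgf13cko lists and no control list there were 2 sites, and in both control lists and no Fgf13cko list there were 0. The share of such sites over the whole lists was not counted, so no difference at these genes is read from them. The values of −log10 q quoted for peaks are the authors' own and describe a peak within its list.

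The Mertk site that begins 59870 bases after the start was listed at −log10 q of 12.2 and 7.11 in Fgf13cko 1 and 2, against 1.87 in control 1 and no peak in control 2. A weaker Mertk site, 87502 to 88124 bases after the start, had 1.54 and 1.51 in the Fgf13cko lists and no peak in the controls. In Pros1, 3 inner sites were in both Fgf13cko lists and in control 2 only. They begin 18366, 57749 and 67661 bases after the start, with −log10 q of 4.06, 4.63 and 5.24 in Fgf13cko 1 and 3.09, 5.23 and 3.62 in Fgf13cko 2, against 1.75, 1.56 and 1.72 in control 2. The Pros1 promoter was listed in all 4 libraries.

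The Gas6 start site, from 89 bases before to 530 bases after it, had a peak in Fgf13cko 2 (−log10 q of 5.21) and none in Fgf13cko 1, against 2.36 and 2.10 in control 1 and 2. A Gas6 site 3687 to 4423 bases after the start was in both Fgf13cko lists, at 2.30 and 2.14, and in no control list. Around the Tyro3 start, Fgf13cko 2 had a peak from 337 bases after it (1.06) and control 1 a peak that ends 1147 bases before it (2.36), and no list held a peak over the start itself. At the Axl promoter the lists gave −log10 q of 5.31 and 4.71 in Fgf13cko, against 10.2 and 15.4 in controls. These values come from the same libraries as the fall that chose the family, so they restate it and are no separate evidence. The Gas6 intergenic region had 12.5 and 11.0 in Fgf13cko, against 6.13 and 4.63 in controls, while by tag count Fgf13cko 1 lay between the controls there.

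**Figure D4:**
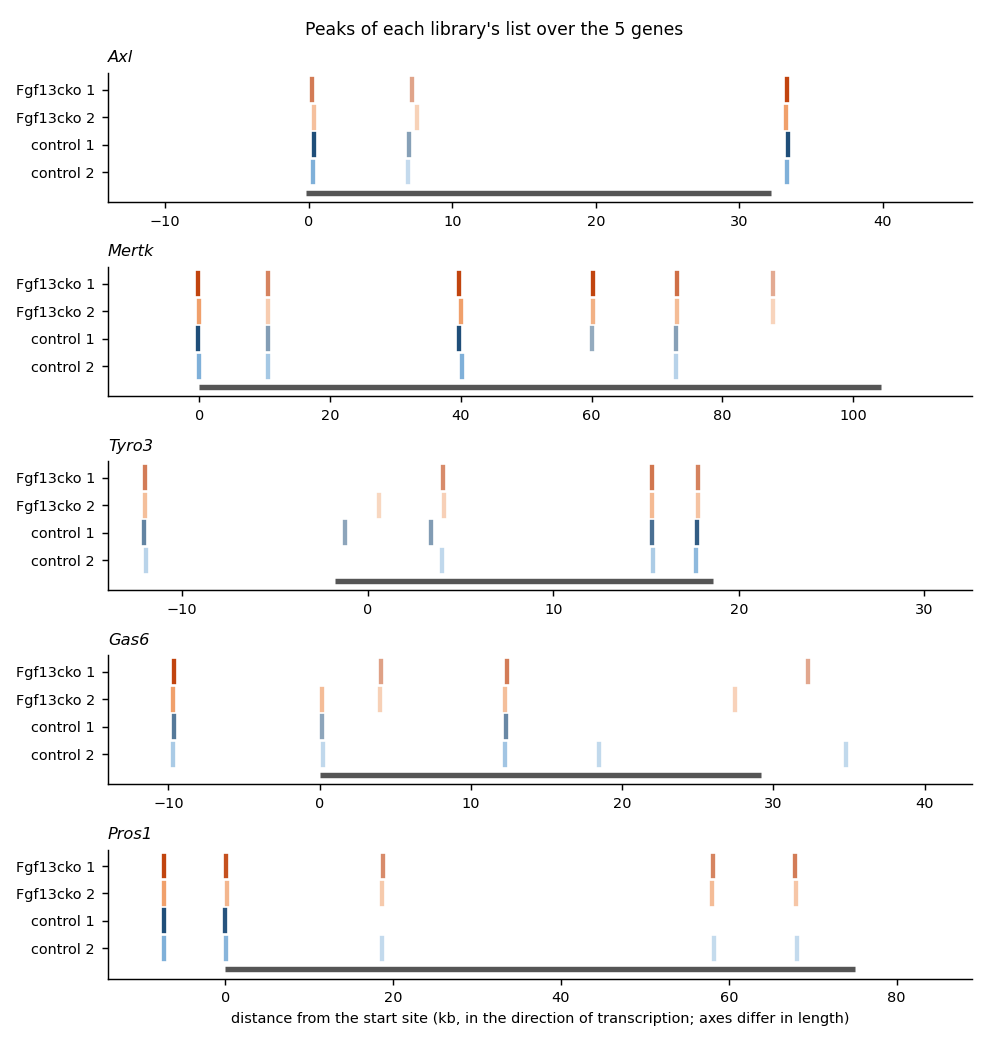
Peaks of each library's list over the 5 genes, by distance from the start site in kb (x axis, in the direction of transcription, a scale for each gene). Each tick is a peak at its centre, darker for a higher −log10 q, rows are libraries with Fgf13cko above control, and the grey bar is the gene. In Pros1 the 3 inner sites appear in 3 of the 4 lists and are absent from control 1.

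For each promoter region, the 3 promoter regions of other genes with the most similar profile over the 4 libraries were found, by Euclidean distance of centred log2 normalised counts. They are given as likeness only. For Axl these were Otx1 (distance 0.100), a homeobox factor of the forebrain, Ndrg2 (0.123), a gene abundant in astrocytes, and Gm45928 (0.173). Otx1 held 129 and 96.4 normalised counts in Fgf13cko, against 238 and 274 in controls, and Ndrg2 217 and 148, against 396 and 409. For Mertk they were Scarb2 (0.019), a lysosomal membrane protein, Wapl (0.021), which releases cohesin from DNA, and Rab11a (0.025), a GTPase of recycling endosomes. For Pros1 they included Arg2 (0.030), the mitochondrial arginase, and Cln6 (0.036). The promoters named for Mertk and Pros1 thus lay at smaller distances than those named for Axl, whose profile departs further from a flat line.

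The pathway around the family was read from 5 lists. The other TAM ligands proposed in mammals, Tub, Tulp1 and Lgals3, had 2 distal regions and no promoter region, and 0 passed. Lgals3, galectin-3, had 13.2 and 48.5 normalised counts in Fgf13cko, against 27.9 and 28.7 in controls (log2 fold change 0.16, edgeR adjusted p = 0.906), and Tub had -0.12 (adjusted p = 0.934). The enzymes that let the ligands be carboxylated, Ggcx, Vkorc1 and Vkorc1l1, had 3 promoter regions, of which 0 passed. Ggcx, the carboxylase itself, stood at a log2 fold change of 0.05 (edgeR adjusted p = 0.943), and Vkorc1l1, which recycles vitamin K, at 0.02 (adjusted p = 0.964). The proteases that shed the receptors, Adam10 and Adam17, and their inhibitor Timp3 had 3 promoter and 3 distal regions, of which 0 passed. The Adam10 promoter held 214 and 148 normalised counts in Fgf13cko, against 241 and 252 in controls (log2 fold change -0.45, edgeR adjusted p = 0.261). It fell with the width offset (-0.57, edgeR adjusted p = 0.00175), in a fit where 18.1% of all promoters fell.

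Of the 20 genes of TAM signalling, 19 had a region. None of their 20 promoter regions passed, at a median log2 fold change of -0.22, and 5 of their 42 distal regions rose and 0 fell, at a median of 0.30. That share of distal regions is near the 9.48% over all distal regions. The region 41364 bases upstream of Vav3, a guanine nucleotide exchange factor, rose the most: it held 169.6 and 163 normalised counts in Fgf13cko, against 40.6 and 29.6 in controls (log2 fold change 2.24, edgeR adjusted p = 0.00385). A further Vav3 region rose by 0.88 (adjusted p = 0.0275). A region in Akt2, a kinase downstream of PI3K, held 141 and 177 in Fgf13cko, against 54.8 and 38.0 in controls (1.78, edgeR adjusted p = 0.00592). Regions of the kinase Src (0.79, adjusted p = 0.0448) and of Socs3, an inhibitor of cytokine receptors (0.75, adjusted p = 0.0386), rose less. Under the width offset, 10 of the 42 distal regions rose and 4 fell, beside 21.7% and 9.7% of all distal regions, and 0 of the 20 promoters rose and 6 fell, beside 5.02% and 18.1%.

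Of the 26 genes of the engulfment of apoptotic cells, 23 had a region. Of their 20 promoter regions 1 rose and 1 fell, beside 1.42% and 0.76% of all promoters, and of their 53 distal regions 3 rose and 3 fell, beside 9.48% and 2.24% of all distal regions. The regions that passed include some of Dock1, Elmo2 and Elmo1, which relay engulfment receptors to Rac, and these had both signs. Most regions of these genes did not pass, so no direction is read for them. Regions of Dock1, an exchange factor for Rac, rose by 1.61 and 1.16 (edgeR adjusted p = 0.00683 and 0.0111). The promoter of Elmo2, a partner of Dock1, rose to 117 and 120.2 normalised counts in Fgf13cko, against 63.2 and 50.7 in controls (1.07, adjusted p = 0.0222). A region in intron 1 of its paralogue Elmo1 fell to 61.3 and 62.7 in Fgf13cko, against 141 and 131 in controls (-1.12, edgeR adjusted p = 0.0136). The promoter of Anxa5, which encodes the phosphatidylserine-binding annexin A5, fell to 122 and 107 in Fgf13cko, against 234 and 221 in controls (-0.99, edgeR adjusted p = 0.0154). A region in the integrin gene Itgb5 fell by 1.32 on the log2 scale (adjusted p = 0.0436), at 38.4 and 90.7 in Fgf13cko, against 163 and 164 in controls. With the width offset, 9 of the 53 distal regions rose and 7 fell, beside 21.7% and 9.7% of all distal regions. In the same fit 3 of the 20 promoters rose and 3 fell, beside 5.02% and 18.1% of all promoters.

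Cell type markers were read beside these results, and their part in any difference at the TAM genes was not tested. Their counts stand beside 1.42% risen and 0.76% fallen over all promoters, and 9.48% and 2.24% over all distal regions. Over the 7 marker lists 11 regions rose and 3 fell, and with the width offset 28 rose and 10 fell, where 5.02% and 18.1% of all promoters and 21.7% and 9.7% of all distal regions did. All 6 neural stem cell markers (Sox2, Nes, Pax6, Hes5, Vim and Fabp7) had a measured promoter region in these cells, which are labelled as neural progenitors. Of their regions 0 of 6 at promoters and 2 of 10 distal ones passed, a Nes region (2.02, edgeR adjusted p = 0.00997) and a Fabp7 region (1.25, adjusted p = 0.0176), both risen. Their summed level was 2760 and 2439 normalised counts in Fgf13cko, against 2178 and 2331 in controls. Microglia, which express Axl and Mertk, had a region at 5 of 14 markers. No region was measured at Cx3cr1, Tmem119, Aif1, Itgam, Cd68, Spi1, Trem2, Tyrobp or Fcrls. A measured region has a peak in all 4 lists, and the lists were not searched at these markers, so microglia are not shown to be absent. The microglial regions measured summed to 668 and 629.8 in Fgf13cko, against 674 and 686 in controls. Of the 11 microglial regions 0 passed, and the smallest adjusted p belonged to Csf1r (0.99, edgeR adjusted p = 0.0628) and Sall1 (0.66, adjusted p = 0.0901). With the width offset these 2 rose (adjusted p = 0.00401 and 0.0241) and the Sall1 promoter fell.

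All 11 astrocyte markers had a region, which summed to 4374 and 4047 normalised counts in Fgf13cko, against 3599 and 3871 in controls. Of 9 promoter and 22 distal regions 2 rose and 2 fell: a region in the glutamate transporter gene Slc1a3 (1.85, edgeR adjusted p = 0.00385) and one upstream of Aldh1l1 (0.82, adjusted p = 0.0349) rose, while a region 1399 bases upstream of Gfap (-1.06, adjusted p = 0.0143) and the Apoe promoter (-0.95, adjusted p = 0.0334) fell. The oligodendrocyte lineage, with 7 of 8 markers measured, had 3 risen distal regions near Olig2 (1.14) and Olig1 (0.93 and 0.78) of 22, and a fallen Gpr17 promoter (-1.15, edgeR adjusted p = 0.0303) of 5. Its summed level was 3573 and 3155 in Fgf13cko, against 2584 and 2530.5 in controls. Neuronal markers, 5 of 6 measured, summed to 1662 and 1735 in Fgf13cko, against 1219 and 1211 in controls, and 2 of their 5 promoters rose, Map2 (1.24, edgeR adjusted p = 0.0197) and Syt1 (0.89, adjusted p = 0.0334), with 1 of 14 distal regions, also of Map2 (1.25). Endothelial and pericyte markers, 7 of 8 measured, summed to 886 and 997 in Fgf13cko, against 903 and 929 in controls, and 1 of 17 regions rose, near Cdh5 (1.24, edgeR adjusted p = 0.0487). Fibroblast markers had regions at 2 of 4 genes, and 0 of 3 regions passed. Their sums were 109 and 128 in Fgf13cko, against 115 and 108 in controls.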

How the data were processed

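Chromatin accessibility was read from a deposited table of 29121 merged regions and 4 peak lists. Per the file headers, the authors' estimated counts are unnormalised tag counts that HOMER assigned to each region on mm10. Every value is a multiple of 0.5 and 50.2% are whole, so values were rounded before testing. In the peak lists, the authors' fold enrichment (a ratio) and −log10 p and −log10 q belong to each peak. HOMER, MACS2, Bowtie2, Picard and DESeq2 are named in the submitters' processing notes. Roles, versions and any Tn5 shift are not stated in the sources used here. Genes and promoter sequences come from RefSeq (GRCm38.p6), where all 5 members were matched.

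Groups and replicate numbers come from the sample titles. All 4 libraries were fitted without covariates in edgeR 4.0.16 (R 4.3.3; filterByExpr, TMM, glmQLFit with robust estimation, two-sided glmQLFTest), with Benjamini-Hochberg adjustment over 28801 tested regions, threshold 0.05. The self-test on simulated counts used the same code. Normalised counts are tags over each library's relative effective size. The header gave 16.8 and 13.1 M tags in Fgf13cko, against 24.9 and 26.0 M in controls. The 2 mitochondrial regions stayed in the fit, and 9 regions name no gene. Members and lists were chosen with earlier results of these data known. Named from each list were up to 6 regions past the threshold with the largest change, or otherwise the 2 with the smallest p. Likeness used 3 promoters per member, of which 1 is not reported here. Alternatives changed scaling, filter, rounding, tool, replicate block and the libraries used, and an offset trended on region width (limma 3.58.1 loess) and a crossed pairing were added after seeing the data. DESeq2 1.42.0 served as an alternative. Peaks within 10 kb of a gene were merged where they overlapped.

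Replicates did not agree within sampling noise (chi-square per region 5.61 in Fgf13cko and 1.69 in controls) and were kept apart.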

Additional observations from a re-analysis of the deposited data

How the results depend on the processing

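The log2 fold change of the Axl promoter kept its sign under all 15 alternatives, between -1.50 and -0.28. The family was chosen by this fall in the same counts, so the range describes the value and does not test it. The value -0.28 came from scaling to the region total with mitochondrial tags included, which moved the median of all regions to 0.97. Under that scaling the Mertk promoter stood at 0.86, Mertk intron 1 at 0.25 and Mertk intron 4 at 0.88. The Tyro3 3' UTR stood at 0.10 and the Pros1 promoter at 0.88. All of these turned from negative. In the same fit 6 of the 9 regions outside Axl rose, beside 17644 of all 28801 tested regions. The 6 are therefore not set apart from all regions. Axl intron 4 turned to -0.026 with the width offset. Leaving out each library in turn gave both signs for Axl intron 4 (-0.22 to 0.47), the Mertk promoter (-0.42 to 0.16), Mertk intron 4 (-0.42 to 0.19), the Gas6 intergenic region (-0.038 to 1.37) and Gas6 intron 4 (-0.34 to 0.67). The cause was not tested. Leaving out a library gave 0 to 1 risen and 0 to 1 fallen among the 9 regions, where the lone library is assumed to vary like the others. The width offset gave 1 risen, a distal region, where 21.7% of all distal regions rose. Sites in both Fgf13cko lists and no control list numbered 5 at a −log10 q of at least 2, again without a share over the whole lists. Of these, the 3 in Pros1 and the 1 in Mertk have a control peak that lies below this cutoff. Only the 1 in Gas6 has no control peak at any q. Axl intron 4, Mertk intron 1 and Gas6 intron 4 have no value under the mean filter of 50.

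Over all regions 2258 passed (79.1% risen), with 3255 under the loess offset (63.8%), 17704 with the region total (99.7%), 8076 with the width offset (53.2%) and 1514 in DESeq2. Without 1 library the counts were 485 and 224 (controls 1 and 2 left out), and 7000 (58.9% risen) and 10086 (50.6%) (Fgf13cko 1 and 2 left out). In the pathway lists 9 rose and 4 fell, beside 1.42% and 0.76% of all promoters and 9.48% and 2.24% of all distal regions. With the width offset 22 rose and 21 fell, beside 5.02% and 18.1% of promoters and 21.7% and 9.7% of distal regions.

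Same-numbered samples shared only a number (deviations correlated at r = -0.241). With the replicate block 0 of the 9 regions passed, and 2808 over all regions. The crossed pairing gave 0 and 3817.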
